A study of Mus musculus with 6 samples.

Results

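The cytosolic ribosomal protein genes were taken from the gene tables of 6 duodenum libraries by symbol: Rpl or Rps followed by a digit, with the kinase family Rps6k left out, together with Rpsa, Rplp0, Rplp1 and Rplp2. The rule found 88 of 23235 gene symbols. Of these, 46 encode proteins of the large subunit and 31 proteins of the small subunit, and these 77 are called the core genes. The other members were 8 paralogs, among them Rpl22l1 and Rps27l, and 3 rows of another kind: Rpl34-ps1, Rps19-ps3 and Rps19bp1, the last of which is named for binding a ribosomal protein and is no subunit of the ribosome. The filter on low values, a mean of at least 0.2 FPKM, kept 85 members, and the paralogs Rpl3l, Rpl10l and Rpl39l stayed under it. FPKM stands for fragments per kilobase of transcript and per M mapped reads, M standing for mega, so a level on this scale is per length.

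RNA came from the first 2 cm of duodenum of mice of mixed background at 6 weeks, with 1 library per mouse, 3 controls and 3 mutants. Control 1 was Nkx2.2flox/+; Rosa26Tomato/+, control 2 was Rosa26Tomato/+ and control 3 was WT. Mutants 1 and 3 were Nkx2.2flox/SD; Villin-Cre/+; Rosa26Tomato/+, and mutant 2 was Nkx2.2flox/SD; Villin-Cre/+. Villin drives Cre in the intestinal epithelium, so the floxed copy of Nkx2-2, a gene for a homeodomain transcription factor of endocrine cells, is removed there only, whereas the SD allele is present in all cells of the mutants. No control carried Cre or the SD allele, so Villin-Cre, the loss of the floxed copy and the SD allele cannot be told apart. Nothing in the labels states litters or cages, and the spread between libraries is taken as the spread between mice. The comparison asks how duodenal transcripts, here those of the ribosome, differ between the genotypes.

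Ribosomal proteins coat and stabilise the ribosomal RNA of the small subunit, which decodes the messenger RNA, and of the large subunit, which forms the peptide bonds. Each protein is present in a fixed ratio to the others, and the intestinal epithelium, which renews itself without pause and secretes enzymes, mucus and hormones, needs many ribosomes. The messenger RNAs are known for a run of pyrimidines at the 5′ end (the TOP motif), and the genes for the many processed pseudogenes that reverse transcription of these short, abundant messengers has left in the genome.

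Those pseudogenes bear on every value below, since a read from a gene and a read from its copy can be the same string of bases. The following stretches of coding sequence show the range. Each is 150 bases of a GENCODE transcript in the build of the files (mm9, NCBIM37), 5′ to 3′ on the coding strand, and capitals mark bases inside at least 1 window of 101 bases, the read length, that is also found without a mismatch outside the gene's own locus.
Rps12: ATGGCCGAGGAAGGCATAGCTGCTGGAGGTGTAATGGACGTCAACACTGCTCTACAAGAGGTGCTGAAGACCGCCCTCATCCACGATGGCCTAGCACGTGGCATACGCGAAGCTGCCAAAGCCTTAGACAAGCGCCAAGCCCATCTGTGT
Rpl29: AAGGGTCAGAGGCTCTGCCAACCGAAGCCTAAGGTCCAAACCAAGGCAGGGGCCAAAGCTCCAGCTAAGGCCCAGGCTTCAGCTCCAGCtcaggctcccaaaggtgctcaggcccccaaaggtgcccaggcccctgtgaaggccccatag
Rps18: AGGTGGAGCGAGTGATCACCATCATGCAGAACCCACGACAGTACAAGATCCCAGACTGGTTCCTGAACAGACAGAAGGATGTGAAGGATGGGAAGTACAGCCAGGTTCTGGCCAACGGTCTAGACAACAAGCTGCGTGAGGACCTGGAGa
Rps3: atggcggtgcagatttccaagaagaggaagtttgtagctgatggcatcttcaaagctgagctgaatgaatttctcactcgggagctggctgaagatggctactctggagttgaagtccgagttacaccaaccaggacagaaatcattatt
Rps12, a small subunit protein (chromosome 10, 23504988 to 23507015, minus strand), is shown from coding base 1, and all of its 399 coding bases lay in such shared windows. One window of it, from coding base 299 to 399, was found at 15 other places, 10 of them annotated as pseudogenes and no other gene. Rpl29, a large subunit protein (chromosome 9, 106331869 to 106333898, plus strand), is shown from coding base 334 to the stop codon. There 61 bases in lower case lie outside every shared window of 101 bases, though shorter windows over them may be shared. In Rps18, a protein of the head of the small subunit (chromosome 17, 34088943 to 34092586, minus strand), 458 of 459 coding bases lay in a shared window, although only 49.3% of its windows were shared. Rps3, at the entry of the messenger RNA channel (chromosome 7, 106626406 to 106632219, minus strand), is shown from coding base 1 and had no shared window of this length.

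Among the 76 core genes with a GENCODE coding sequence the median share of shared windows of 101 bases was 73.5%, and it was 90.8% for windows of 50 bases. At least 1 intronless copy, a single alignment over 80% of the coding sequence at 90% identity or more, was found for 73 of the 76, and a copy of at least 98% identity for 64. The median number of copies was 10 and the highest was 80, for Rpl21. Rpl8 and Rps3 had none.

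At the annotated start of transcription, a match to a TOP-like tract was defined as a C within 5 bases of the start followed by at least 4 further C or T. RefSeq promoters (GRCm38.p6) held an entry for 57 of the 77 core genes. A tract was present for 27 of them (47.4%), against 21.2% of all 27025 genes in the table. Counted by start site, the shares were 43.3% and 18.3%. The windows below cover 15 bases on each side of the start, with the tract in capitals where there is one. Rps18 and Rps21 are shown as small subunit genes with some of the lowest p-values, and Rpl11 as a large subunit gene with no tract at its annotated start. Rpl22l1 is shown as the paralog with the lowest p, and Gas5 as a host of small nucleolar RNAs described further on.
Rps18, chr17:33955651-33955680, minus strand: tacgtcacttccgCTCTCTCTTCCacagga
Rps21, chr2:180257364-180257393, plus strand: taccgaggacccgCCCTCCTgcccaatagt
Rpl11, chr4:136053379-136053408, minus strand: ctgacccataaggccacggggccggaagtc
Rpl22l1, chr3:28805493-28805522, plus strand: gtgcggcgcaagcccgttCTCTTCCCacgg
Gas5, chr1:161035151-161035180, plus strand: agccgccatctcagCCTTTCggagctgtgc
A tract is a match of letters in one direction, on the strand of the gene, and overlaps with other motifs were not searched. Starts were taken as annotated, and where transcription starts in this tissue was not tested, so a tract at another start would be missed. Of 9 snoRNA host genes with an entry, 5 had a tract.

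The depth of the control libraries was 19.6 to 21.4 M reads and that of the mutant libraries 19.1 to 22.9 M, as read from the scaling of FPKM to coverage. Nkx2-2 was listed at 1.07, 0.647 and 0.716 FPKM among controls 1 to 3, against at 0.564, 0.772 and 0.909 FPKM among mutants 1 to 3. These ranges overlap, and in whole duodenum the gene does not check the labels. Xist stood at 0.0373 FPKM in control 1 and 0.0670 FPKM in mutant 1, against 17.1 to 21.9 FPKM in the other libraries, so 1 library of each group was read as male. Summed enterocyte markers lay between 22505 and 35673 FPKM among controls and between 27504 and 37021 FPKM among mutants, and none of the 10 was at 0.

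Ribosomal protein genes spanned a wide range of levels in this tissue. Over the 6 libraries the core genes had a median mean of 222 FPKM, with quartiles of 139 and 493 FPKM. The highest was Rpl41, which encodes the smallest protein of the large subunit, at 1799 FPKM, and the lowest was Rpl26 at 13.9 FPKM, a ratio of 129. Above 1000 FPKM stood 9 core genes and under 100 FPKM 15. The small subunit genes had a median of 422 FPKM and the large subunit genes one of 205 FPKM.

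After Rpl41 came Rplp1, one of the acidic proteins of the stalk that recruits elongation factors, at 1688 FPKM. The other stalk genes stood lower: Rplp0, which anchors the stalk, had a mean of 875 FPKM and Rplp2 one of 308 FPKM. Rps9 of the small subunit stood at 1144 FPKM and Rpl32 of the large subunit at 1129 FPKM. These were not separated by their spread: Rps9 ranged from 1061 to 1279 FPKM over the 6 libraries and Rpl32 from 981 to 1293 FPKM. At the lower end stood Rpl30 at 28.0, Rps15a at 32.6 and Rps12 at 39.4 FPKM, with Rps27 at 15.1 and Rpl26 at 13.9 FPKM. The level of Rps15a is per length of a transcript of 5134 bases, against 518 bases for Rps12. A mean of 3374 reads lay behind the FPKM of Rps15a and 255 behind that of Rps12, so Rps15a was low per length only. Among the paralogs the levels were 617 FPKM for Rpl36al, 473 for Rps27l, 88.6 for Rpl22l1, 55.3 for Rps4y2 and 40.2 for Rpl7l1, whereas Rpl3l stood at 0.0560, Rpl39l at 0.0269 and Rpl10l at 0 in every library.

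Levels moved with the share of shared coding windows. The 11 core genes with under 20% of windows shared had a median of 1016 FPKM, and the 32 genes with 80% or more had one of 161 FPKM. Between them, the 10 genes from 20% to 50% had a median of 675 FPKM and the 23 genes from 50% to 80% one of 197 FPKM. Across the 76 genes Spearman's rho between the share and the level was -0.54. It is a description over genes that share the same 6 libraries and differ in length and base composition, and its origin was not tested. Rpl22 stood apart from the pattern, with no shared window of 101 bases and 94.9 FPKM.

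**Figure D1:**
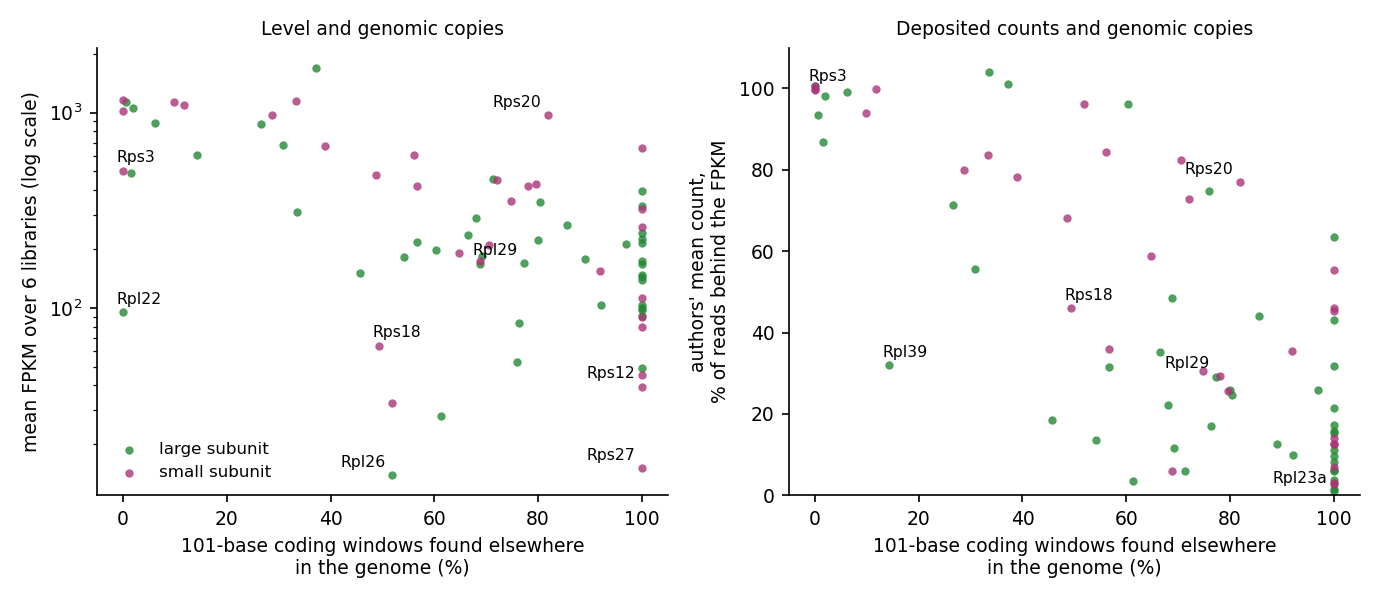
Each point is 1 core gene with a GENCODE coding sequence; the horizontal axis gives the share of its 101-base coding windows found elsewhere in the genome (%), the left vertical axis its mean FPKM over 6 libraries (log scale) and the right vertical axis the authors' mean normalized count as a percentage of the reads behind the FPKM. Genes with few shared windows sit at the top of both panels, apart from Rpl22 on the left and Rpl39 on the right.

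The authors' deposited table gave a second view of the same libraries, since its group means are normalized counts and not FPKM. For the 11 genes with under 20% of windows shared, the authors' mean count came to a median of 99.2% of the reads behind the FPKM. The median was 74.9% for genes from 20% to 50%, 31.0% from 50% to 80% and 14.8% at 80% or more. Rpl23a, a large subunit protein that binds the signal recognition particle, had 242 FPKM but authors' deposited means of 16.8 in controls and 21.0 in mutants, or 1.07% of its reads. By the same measure from the authors' deposited table, Rpl5 had 1.46%, Rps6 2.86%, Rps23 3.03%, Rpl30 3.42% and Rpl10a 3.81%. Rpl26 was listed at 0 there. At the other end Rps3 had 99.7%. Among all genes with both a count and recovered reads, 527 (3.63%) had a log2 ratio of counts to reads more than 1 below the median of these genes. Among 76 core genes 47 (61.8%) did.

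Between the genotypes, the core genes lay mostly above the control mean in the mutants, by a small amount. The mutant mean was higher for 71 of 77 core genes, against 51.2% of the 14642 genes tested. The median log2 change (mutant minus control, on the log2(FPKM + 0.1) scale) was 0.13, against 0.0042 over all genes tested. None of the 85 members tested passed the threshold of 0.05 after Benjamini-Hochberg adjustment in limma, and neither did any other gene (0.0%). With limma-voom on recovered reads the count was 0 as well. At an unadjusted p under 0.05 in limma, 11 members were higher (10 of them core genes) and none lower, against 1.98% and 0.861% of all genes. The number of higher members moved with the library left out. Without controls 1, 2 and 3 in turn it was 3, 4 and 13 of 85. All genes with such a p, in either direction, were then 582 of 14616, 413 of 14692 and 508 of 14619. Without mutants 1, 2 and 3 in turn the number was 5 (with 1 lower), 7 and 9. The numbers over all genes were 360 of 14633, 514 of 14645 and 299 of 14631. Higher members numbered 3 in the 4 libraries read as female and also 3 without control 2 and mutant 1 together. Over all 14642 genes, 454 and 488 had such a p. Where only 3 members were higher, their share was close to that of all genes. The highest control lay under the lowest mutant for 22 core genes and the reverse held for none, against 4.14% and 3.43% of all genes. With quantile normalization the mutant mean was higher for 58 of 77 core genes, with a median log2 change of 0.08, and for 46.0% of all genes, and 7 members had an unadjusted p under 0.05 in limma. With libraries scaled by the median ratio over other genes, 71 core genes and 50.4% of all genes were higher. There 7 members had such a p, as they did in limma without the trend. Over all 14642 genes, 515, 501 and 470 had such a p in these settings in turn, in either direction. Genes of 1 ribosome are not independent of one another, and these counts carry no test. In bulk tissue, a different number of cells of a type and a different amount of RNA per cell cannot be told apart.

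Both subunits had mostly higher mutant means. Of 46 large subunit genes, 43 had a higher mutant mean, with a median log2 change of 0.12, and the groups did not overlap for 8. Of 31 small subunit genes, 28 were higher, with a median of 0.13, and the groups did not overlap for 14. Over all genes tested, 4.14% were higher without overlap. The 5 paralogs tested gave 3 higher means and a median of 0.03. The 6 core genes with a lower mutant mean were Rps19 (-0.40), Rps27 (-0.25), Rpl34 (-0.17), Rpl21 (-0.04), Rps26 (-0.0079) and Rpl23a (-0.0063).

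Summed over the core genes, the level was 29060, 27748 and 29608 FPKM among controls 1 to 3, against 33704, 30915 and 30589 FPKM among mutants 1 to 3. The core genes made up 3.99%, 3.84% and 3.94% of all FPKM among controls, against 4.44%, 4.13% and 4.17% in mutants. Every mutant sum lay above every control sum, mutant 1 was the highest and control 2 the lowest. Those 2 libraries also held the extremes gene by gene, with 65 of 77 core genes highest in mutant 1 and 51 lowest in control 2. Above their own mean over the 6 libraries lay 93.5% of core genes in mutant 1 and 6.49% in control 2. Among 14557 other genes the shares were 56.6% and 36.3%, so other genes leaned the same way to a smaller degree. In mutants 2 and 3, 49 and 36 of 77 core genes lay above their own mean, and in controls 1 and 3 it was 20 and 27. The median ratio of a core gene to its own mean was 0.993 in mutant 3. Without mutant 1 the mutant mean was higher for 64 core genes, with a median log2 change of 0.08, while 46.3% of all genes were higher. Without control 2 the corresponding values were 68 genes, 0.09 and 44.0%. Without both it was higher for 51, the median was 0.04 and 40.5% of all genes were higher. In the 4 libraries read as female, 65 core genes were higher, with a median of 0.09 and 56.1% of all genes higher.

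**Figure D2:**
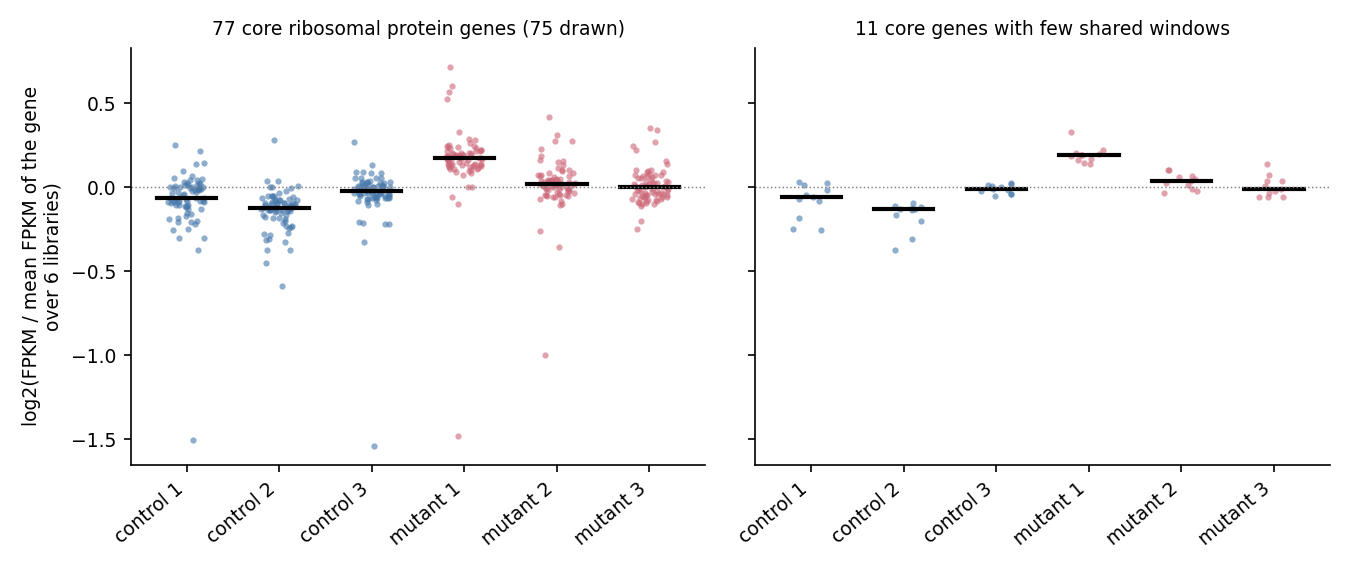
Each point is 1 gene in 1 library, as log2 of its FPKM over its own mean of 6 libraries, for the core genes (left; Rps27 and Rpl26, which swing widely, are not drawn) and for the 11 core genes with under 20% of windows shared (right); bars are medians. Mutant 1 sits highest and control 2 lowest in both panels.

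Some marker lists of other cell types were also highest in mutant 1. Summed markers of B cells and plasma cells, which carry many ribosomes, lay between 1467 and 1664 FPKM among controls and between 1504 and 2070 FPKM among mutants, with mutant 1 highest, and 6 of 7 had a higher mutant mean. Goblet cell markers lay between 8512 and 11052 FPKM among controls and between 10892 and 12774 FPKM among mutants, again with mutant 1 highest and with control 3 lowest, and 5 of 6 were higher. Paneth cell markers lay between 24919 and 43709 FPKM among controls, with control 2 lowest, and between 37691 and 45963 FPKM among mutants, with mutant 1 highest, and 6 of 6 were higher. No marker of these 3 lists was at 0 in any library. Other lists did not follow the order: enterocyte markers summed to 28824 FPKM in mutant 1, under control 3 and mutant 3, T cell markers were highest in control 2, at 69.2 FPKM, and smooth muscle markers stood at 601 FPKM in mutant 1, with only control 2 lower. Proliferation markers lay between 254 and 266 FPKM among controls and between 253 and 275 FPKM among mutants, with mutant 1 lowest of the 6 libraries, and 4 of 10 were higher. Over all genes tested, 51.2% had a higher mutant mean. The part of these cells in the ribosomal values was not tested.

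The 11 genes with under 20% of windows shared included Rpl4, Rpl8, Rpl13a, Rpl22, Rpl32 and Rpl39 of the large subunit and Rps3, Rps15 and Rps21 of the small subunit. All 11 had a higher mutant mean, with log2 changes from 0.09 to 0.37, and the groups did not overlap for 3, Rpl13a, Rpl39 and Rps21, against 51.2% higher and 4.14% higher without overlap among all genes. All 11 were highest in mutant 1 and 10 were lowest in control 2. In these 2 libraries 56.6% and 36.3% of the genes that are not members lay above their own mean. Without mutant 1 the mutant mean stayed higher for 11, with a median log2 change of 0.06, and without mutant 1 and control 2 for 9, with a median of 0.03, against 46.3% and 40.5% of all genes. The median over the other shares of shared windows was close to theirs, at 0.12 for 20% to 50%, 0.15 for 50% to 80% and 0.12 at 80% or more, against 0.13 for the 11.

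Rps21, a small protein of the small subunit, gave the lowest p of these 11. Rps21 stood at 854, 820 and 1031 FPKM among controls 1 to 3, against 1185, 1088 and 1118 FPKM among mutants 1 to 3. No mutant fell within the control range. Its log2 change was 0.33 with an SE of 0.11, the unadjusted p in limma was 0.021 and the adjusted p was 1.00. None of its coding windows of 101 bases was found elsewhere, although 46.8% of those of 50 bases were, and it had 3 intronless copies. In the authors' deposited table the log2 change was 0.31, with an unadjusted p of 0.054.

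Rpl39, at the exit tunnel of the large subunit, stood at 510, 470 and 616 FPKM among controls, against 764, 653 and 641 FPKM among mutants. The groups did not overlap, by a narrow margin between control 3 and mutant 3. Limma gave a log2 change of 0.37 with an SE of 0.13 and a p of 0.023 unadjusted and 1.00 adjusted. The coding sequence of Rpl39 has only 156 bases. Of its windows of the read length 14.3% were found elsewhere, but of those of 50 bases 88.8% were. Rpl39 had 21 intronless copies, 2 of them of at least 98% identity. The authors' mean count came to 31.9% of its reads, the lowest among the genes with under 20% of windows shared.

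Rpl11, a large subunit protein that also binds Mdm2 when ribosome assembly fails, stood at 201, 192 and 198 FPKM among controls. In mutants it stood at 241, 227 and 217 FPKM, and the groups did not overlap. The log2 change was 0.21 with an SE of 0.08, and the limma p was 0.029 unadjusted and 1.00 adjusted. Of its coding windows 96.9% were shared.

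Rps27a, made as a fusion with ubiquitin, stood at 73.1, 74.3 and 93.5 FPKM among controls, against 104, 98.8 and 96.7 FPKM among mutants. Rps14, on the platform of the small subunit, stood at 856, 830 and 991 FPKM among controls, against 1075, 1094 and 1013 FPKM among mutants. In both genes the lowest mutant lay just above control 3. The log2 changes were 0.32 for Rps27a and 0.25 for Rps14, with adjusted p-values of 1.00 in limma. Rpl38, a large subunit protein known from tail-short mice, stood at 270, 332 and 265 FPKM among controls, against 319, 390 and 421 FPKM among mutants. There control 2 exceeded mutant 1, and the log2 change was 0.38 with an adjusted p of 1.00 in limma. With limma-voom on recovered reads, which leave out an isoform without a successful estimate in every library, it was 0.22. The other isoforms, NM_001048057 and NM_023372, had log2 changes of 0.19 and 0.26.

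Among the paralogs, Rpl22l1, which can stand in for Rpl22 in the large subunit, had levels of 66.3, 70.3 and 87.9 FPKM among controls, against 116, 103 and 88.7 FPKM among mutants. Mutant 3 lay just above control 3, so the groups touched without overlapping. The log2 change was 0.45 with an SE of 0.14, and the limma p was 0.015 unadjusted and 1.00 adjusted. Rpl22 itself stood at 94.0, 84.4 and 93.8 FPKM among controls, against 108, 93.5 and 95.4 FPKM among mutants, which overlap. The log2 changes of the other paralogs named by p were 0.07 for Rps27l, -0.17 for Rps4y2 and -0.05 for Rpl7l1, each with overlapping groups.

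**Figure D3:**
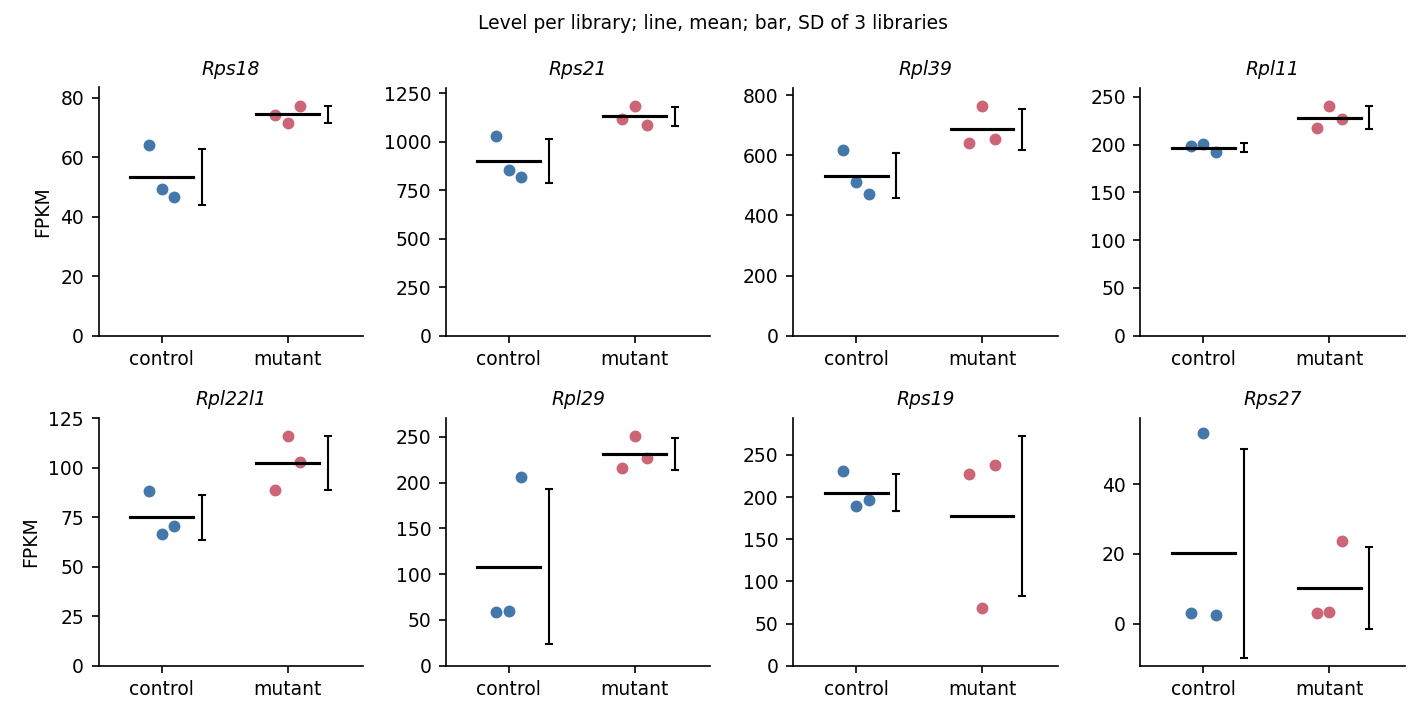
FPKM of 8 members in each library, with the 3 controls and 3 mutants as points, the group mean as a line and the SD of 3 libraries as a bar, each panel on its own scale from 0 or below where the SD bar reaches below 0. Rps18, Rps21, Rpl39, Rpl11, Rpl22l1 and Rpl29 show no overlap between groups, whereas in Rps19 and Rps27 single libraries stand far from the rest.

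Rps18 was the only member past the threshold in the authors' deposited table. In FPKM it stood at 49.2, 46.7 and 64.1 in controls and 71.7, 77.3 and 74.3 in mutants, so every mutant lay above every control. The log2 change was 0.49 with an SE of 0.13, a fold of 1.41, with a limma p of 0.0060 unadjusted and 1.00 adjusted. An exact permutation test, two-sided, gave 0.1, the smallest p that 3 libraries against 3 allow. The authors' deposited table gave means of 87.0 in controls and 303 in mutants, a log2 change of 1.80, with an adjusted p of 0.00457. The reads behind the FPKM were 348 in controls and 498 in mutants on average, so the authors' deposited mean came to 46.0% of the reads over both groups. That share was not the same in both: it was lower in controls, at 87.0 against 348 reads, than in mutants, at 303 against 498. How the counts were assigned where a read fits several places is not given in the sources used here, and which of these values follows the Rps18 gene was not tested.

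Over the members, the authors' deposited table gave a higher mutant mean for 66 and a lower one for 10 of the 76 core genes with both values, against 49.6% higher among 18621 genes. The median log2 change of the core genes in the authors' deposited table was 0.15. At an unadjusted p under 0.05, 8 core genes were listed in the authors' deposited table, against 1.12% of its genes, and 1 after adjustment, against 0.0269%. The table rests on the same 6 libraries as the FPKM, so the sign held in common by 68 core genes is no second sample.

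The values of 5 core genes differed by more than 0.5 on the log2 scale between the authors' deposited table and the fit on FPKM. Beside Rps18 these included Rpl12, at the base of the stalk, for which the authors' deposited table gave 159 and 431, a log2 change of 1.44, against 0.43 from FPKM. Rpl12 stood at 92.1, 80.2 and 89.4 FPKM among controls, against 149, 86.4 and 125 FPKM among mutants, with mutant 2 inside the control range. Rpl24 had 1.05 in the authors' deposited table against 0.21 from FPKM, and Rps13 had 0.77 against 0.11. In both, all coding windows were shared. Rps3, with no shared window of 101 bases, had 0.13 both in the authors' deposited table and from FPKM. Shared windows did not go with a difference in every gene. Rps28, with all windows shared, had 0.21 in the authors' deposited table and 0.23 from FPKM, and Rps18 had 49.3% of its windows shared. The part of shared windows in these differences was not tested. Apart from Rps18, these genes were picked with their values in view.

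**Figure D4:**
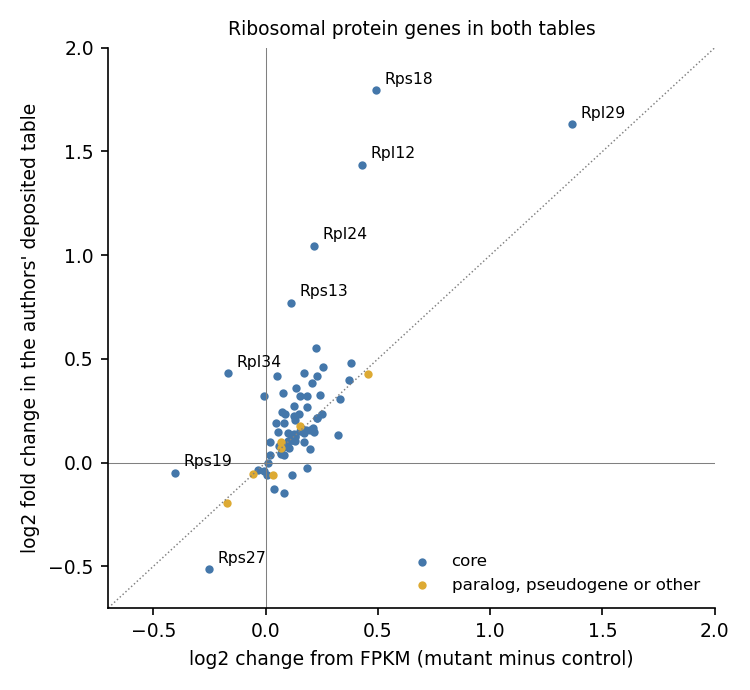
Each point is 1 member, with the log2 change from FPKM (mutant minus control) on the horizontal axis and the log2 fold change of the authors' deposited table on the vertical axis; the dotted line marks equal values. Rps18, Rpl12, Rpl24 and Rps13 lie far above the line.

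Most members varied little within a group. The coefficient of variation within groups had a median of 7.40% over the core genes, against 8.78% over 1894 other genes of at least 50 FPKM, and it was lowest for Rps10, at 2.23%. It exceeded 30% for 5 core genes: Rps27, Rpl26, Rpl34, Rpl29 and Rps19, which were singled out after their values were seen, except that Rpl29, Rps27 and Rpl26 were also taken by the rule for named genes.

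Rpl29 stood at 59.8, 206 and 58.3 FPKM among controls, against 251, 227 and 216 FPKM among mutants. Control 2 lay near the mutants while the other 2 controls lay far lower. The log2 change was 1.37 with an SE of 0.45 and an adjusted p of 1.00 in limma. Without control 2 it was 1.96, and the gene then passed the threshold with an adjusted p of 0.014 in limma. In the authors' deposited table the means were 252 and 780, with a log2 change of 1.63 and an adjusted p of 1.00.

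Rps27, a zinc finger protein of the small subunit, stood at 54.7, 2.62 and 3.03 FPKM among controls, against 3.47, 23.7 and 3.16 FPKM among mutants. Control 1 and mutant 2 were high and the other 4 libraries low. The level came almost whole from the transcript NR_033727 of 575 bases, at 54.7 FPKM in control 1, whereas the coding transcript NM_027015 reached at most 0.0816 FPKM. All coding windows of Rps27 were shared with other places, and the window of its first 101 coding bases was found at 2, both inside genes annotated as protein coding, Wrap53 and Gm9846.

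Rpl26, which lies near the exit tunnel, stood at 12.2, 15.9 and 4.02e-05 FPKM among controls, against 27.2, 21.3 and 6.85 FPKM among mutants, with control 3 next to 0. Rps19, the first gene linked to Diamond-Blackfan anaemia, stood at 189, 196 and 230 FPKM among controls, against 68.7, 238 and 227 FPKM among mutants. Mutant 1, where most core genes were highest, was the lowest library for Rps19. Rpl34 stood at 180, 146 and 130 FPKM among controls, against 249, 75.9 and 128 FPKM among mutants. Its neighbour in the tables, Rpl34-ps1, is annotated over nearly the same bases of chromosome 3, 130429754 to 130433247 against 130429748 to 130433226. Rpl34-ps1 was highest in mutant 2, at 55.8 FPKM, the library where Rpl34 was lowest, and lay at or under 13.0 FPKM in the others. How the reads were shared between the overlapping rows was not tested.

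By transcript, no isoform of a member passed the threshold in limma, against 0.0279% of the 17922 isoforms tested, and without control 2 a single one did. At an unadjusted p under 0.05, 12 member isoforms of 95 tested were higher and 0 lower, against 3.53% of all isoforms in either direction. Rps24, a small subunit protein with alternative 3′ ends, was mostly NM_207634, at 434, 411 and 444 FPKM among controls, against 519, 458 and 468 FPKM among mutants. NM_011297 stood at 16.6 to 23.0 FPKM over the 6 libraries.

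Other genes of the translation machinery were followed as lists chosen for their role. None of their members passed the threshold in limma. Fau, a fusion whose ribosomal part is Rps30, stood at 539, 555 and 581 FPKM among controls, against 674, 589 and 613 FPKM among mutants, without overlap. Of 13 elongation factors and associated messengers 9 were higher, with a median of 0.09, and Btf3 had 0.15 and Npm1 0.11. Of 32 initiation factors 15 were higher and 17 lower, with a median of -0.0014. There Eif1, which fixes the start codon, had 0.11 and Eif3c, a core subunit of eIF3, had -0.10. Ribosome assembly factors, which process ribosomal RNA and join it to the proteins, gave 31 of 45 higher and a median of 0.04, with 0.29 for Nob1 and 0.16 for Nhp2. Genes of TOR signalling and TOP control gave 9 of 17 higher and a median of 0.0012, with 0.13 for Rps6kb2 and 0.10 for Cnbp.

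Host genes of small nucleolar RNAs, whose introns carry guides for ribosomal RNA modification and whose spliced transcripts in several cases have a TOP tract, had a median log2 change of 0.33. All 9 tested had a higher mutant mean, 5 had an unadjusted p under 0.05 in limma and for 5 the groups did not overlap, against 51.2%, 1.98% and 4.14% of all genes. Gas5 stood at 13.8, 14.1 and 12.6 FPKM among controls, against 19.3, 16.4 and 16.9 FPKM among mutants. For Gas5 the log2 change was 0.37 with an SE of 0.10. Snhg6 stood at 13.8, 11.7 and 15.1 FPKM among controls, against 31.7, 18.1 and 30.8 FPKM among mutants. For Snhg6 the log2 change was 0.95 with an SE of 0.22. Both adjusted p-values in limma were 1.00. No control reached a mutant in either gene. All 9 stayed higher without mutant 1, with a median of 0.30, without control 2, with 0.39, and without both, with 0.28. Whether the list differs from the ribosomal protein genes was not tested.

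**Figure D5:**
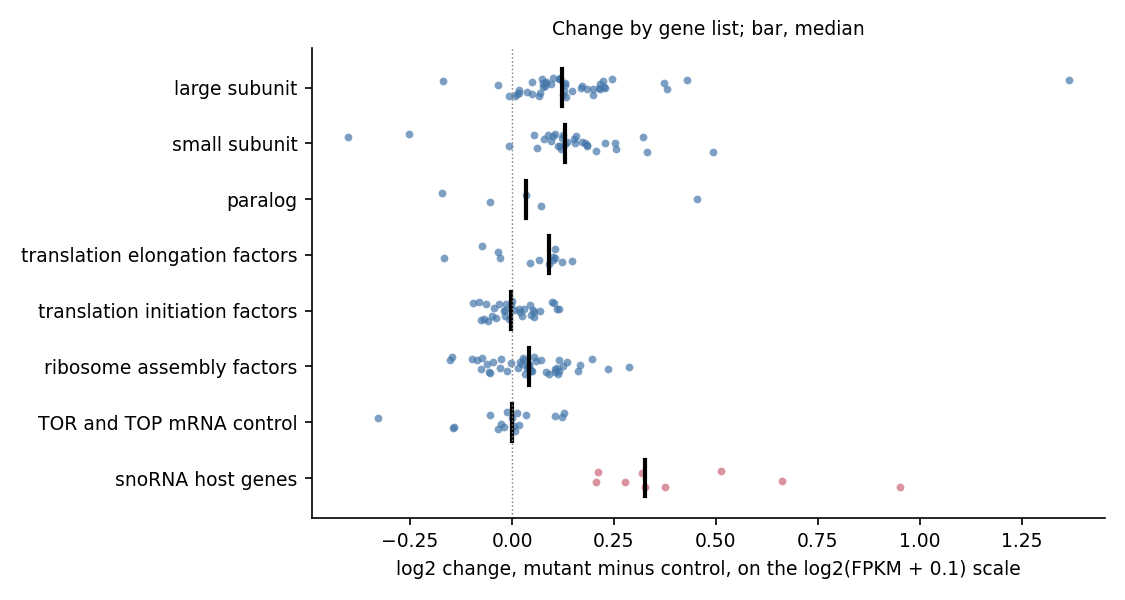
Each point is 1 gene tested, with its log2 change (mutant minus control, on the log2(FPKM + 0.1) scale) on the horizontal axis, by gene list; bars are medians, and Rpl26, at 2.56, lies beyond the axis and is not drawn. The subunit lists lie mostly above 0 with medians of 0.12 and 0.13, initiation factors are centred at -0.0014, and the snoRNA host genes lie between 0.20 and 0.95.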

How the data were processed

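RNA of 6 duodenum libraries was sequenced, 3 per group. The submitters' processing notes name CASAVA 1.8.2, TopHat, Cufflinks, DESeq and the build mm9 without their settings. Deposited FPKM values exist per gene and per isoform for every library, per the file headers, and the isoform tables of the authors add read coverage, an unscaled signal, and length in bases. The authors' table for the series gives DESeq group means of normalized counts (a signal), the ratio of these means, the log2 of that ratio and p-values, with no value per library.

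Members and lists were chosen with earlier results of these data known. Named with a change are Rps18, the 4 members with the smallest p in each subunit and among the paralogs, and 2 genes of each other list. Named by level are the 5 highest and lowest core genes, the stalk genes, the paralogs and the core genes with the lowest count-to-FPKM ratio. Some genes that these rules take are not reported here. The ratio of counts to FPKM times length was the basis of that choice, and Rpl34, which it also takes, is not given there because the reads of 1 of its isoforms are incomplete.

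Genes averaging 0.2 FPKM or more were tested with limma 3.58.1 in R 4.3.3 on log2(FPKM + 0.1), two-sided, with a mean-dependent prior variance, Benjamini-Hochberg adjustment over 14642 genes and a threshold of 0.05. Depth was read from coverage (reads of 101 bases, fragments of 210.6 bases), and reads came out whole within 0.05 for 53.3% to 56.1% of values in the libraries, and for 89.3% to 90.3% of values under 50 reads, so the count test planned for whole reads was not run, the fit on FPKM was the main test and limma-voom on the recovered reads an alternative. On data simulated from the 14642 genes, the fit recovered 68 of 100 genes changed 2-fold and 95 of 100 changed 4-fold, and called 11 unchanged genes. The changed genes were not drawn from those of the lowest levels, and the noise was independent between genes. Changes under 2-fold were not simulated, so the recovery does not cover changes as small as those of most core genes. Of 23699 rows, 344 lacked a successful estimate in some library. Coding sequences were searched on 21 chromosomes with exact windows and with blastn 2.17.0. FPKM of short transcripts and of genes with near-identical copies depends on the authors' length correction and read assignment. Alternatives were another pseudocount, filter, scaling, prior and fit, recovered reads, a replicate block, and leaving out libraries. The terms for sex, the 4 libraries read as female and the removal of 2 libraries were added after seeing the data.

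Whether same-numbered libraries pair was checked by the correlation of their deviations from the group means. It was 0.21, 0.05 and 0.22 for numbers 1 to 3.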

Additional observations from a re-analysis of the deposited data

How the results depend on the processing

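The limits are 3 mice per group, genotypes that differ within the controls, and reads that may belong to copies. No member passed the threshold in the fit as reported or under 17 of 18 alternatives, and 1, Rpl29, passed without control 2 (log2 change 1.96, adjusted p 0.014 in limma; isoforms of members called 0 to 1 over the libraries left out). With 1 library left out, 0 to 3 genes of all tested passed, 0 to 1 members, and the median log2 change of the core genes ranged from 0.08 to 0.16. With a replicate block 1 gene passed, against 0 without, and 850 genes had an unadjusted p under 0.05, against 416 without; members among them were 14 and 11. With 1 library left out, the members higher at such a p ranged from 3 to 13. Genes of all tested with such a p, in either direction, ranged from 299 to 582. The replicate numbers are not a stated pairing. Of the 3 correlations of same-numbered libraries 1 was under 0.1, and 5 of 6 libraries correlated best with their own number. This is a hint from the data and not the design. Library 1 of each group was the one read as male, and the part of sex in these correlations was not tested. Deviations within a group are tied to one another, so the correlations are not independent. For 23 genes named with a change, 410 values under the alternatives kept their direction and side of the threshold. The reversed values were Rps4y2 at 0.026 without control 1 and 0.0026 without mutant 2 (range -0.39 to 0.026 with 1 library left out), and Rps27l at -0.020 without control 2 and mutant 1, and the cause was not tested.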
